A study of Mus musculus with 3 samples.

Results

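The elastic fibre and lysyl oxidase genes were examined in RNA-Seq of KO-actin cells. These are fibroblasts from mouse embryos (MEFs) that lack their own β-actin and express in its place a β-actin tagged with a nuclear localization signal (NLS). The members were chosen by symbol, as Eln, Fbn1, Fbn2, Fbln5, Efemp2, Lox, Loxl1, Loxl2, Loxl3 and Ltbp1, and all 10 were found among the 46603 Ensembl genes counted. The labels give 3 replicates of this genotype as polyadenylated RNA and name no treatment, time or embryo age. Nothing in them tells whether the replicates came from separate cultures, so p-values apply only to these libraries. Neither wild-type MEFs nor knockout MEFs without the tagged protein were analysed here, so every value describes KO-actin cells and none is a change against other cells.

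Elastic fibres give skin, lung and arteries their recoil. Their core is crosslinked elastin, which is laid down on microfibrils built from fibrillins, and the short fibulins guide both elastin and its crosslinking enzymes to that scaffold. Lysyl oxidases are copper-dependent amine oxidases that act on lysines of elastin and also of collagens, while latent TGF-β binding proteins tether inactive TGF-β to the same microfibrils. Fibroblasts are known to make microfibrils and lysyl oxidases, and arterial smooth muscle cells are known as strong producers of elastin.

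The coding sequence of Eln was the most repetitive of the 10. In the longest annotated coding sequence of Eln, 2580 bases long, 46.4% of bases lay in a 12-base word that recurs within it, against 8.93% for Fbn1, 10.7% for Fbn2 and between 1.15% and 6.52% for the other 7 members. The most repetitive stretch is shown here because it carries this feature. It covers coding bases 1829 to 1978 and lies within exon 27, at chr5:134711062-134711211 on the minus strand of GRCm38, and capitals mark the bases in recurring 12-base words, 139 of 150.
Eln: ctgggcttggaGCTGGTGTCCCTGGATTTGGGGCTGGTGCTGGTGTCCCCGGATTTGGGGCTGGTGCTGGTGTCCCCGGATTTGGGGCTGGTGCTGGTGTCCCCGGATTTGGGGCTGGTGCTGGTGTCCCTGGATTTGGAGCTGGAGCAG
Longer repeats were rarer. A share of 3.63% of the 50-base windows of the Eln coding sequence occurred more than once in it, and 2.76% of the windows of its longest transcript occurred in another gene. Whether repeats affected the count of Eln was not tested.

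The lysyl oxidases share a conserved catalytic region. A coding stretch of Loxl1, Loxl2, Loxl3 and Loxl4 is shown to let their likeness be seen beside their counts. It was the stretch of Loxl2 with most identical bases in Loxl1, Loxl3 and Loxl4, summed and aligned without gaps. Lox did not enter this alignment. The 4 segments of 60 bases lie within single exons on GRCm38, at chr9:58293619-58293678 (minus strand) for Loxl1, chr14:69689076-69689135 (plus strand) for Loxl2, chr6:83050164-83050223 (plus strand) for Loxl3 and chr19:42598709-42598768 (minus strand) for Loxl4. Capitals mark the 40 bases that are identical in all 4.
Loxl1: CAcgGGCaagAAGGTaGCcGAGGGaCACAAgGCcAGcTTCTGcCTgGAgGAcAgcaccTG
Loxl2: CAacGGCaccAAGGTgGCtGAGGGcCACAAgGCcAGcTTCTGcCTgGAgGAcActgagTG
Loxl3: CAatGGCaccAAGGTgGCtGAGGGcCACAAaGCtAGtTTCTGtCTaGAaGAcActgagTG
Loxl4: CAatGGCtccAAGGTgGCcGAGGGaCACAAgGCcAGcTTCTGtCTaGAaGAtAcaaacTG
Within this stretch Loxl2 and Loxl3 were the most alike pair, with 53 identical bases, and Loxl1 and Loxl3 the least alike, with 42. Because the stretch was chosen by identity to Loxl2, pairs with Loxl2 were favoured, and this ranking does not measure relatedness. Across whole coding sequences the longest exact run shared by any pair of the family was 32 bases, between Lox and Loxl1, so no 50-base window was held in common by any of the 5 lysyl oxidase coding sequences.

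Libraries held 44383636 to 49932446 counts, and levels are given as CPM, counts per 1000000 of a library size scaled with edgeR's TMM method. Levels of different genes are compared only as CPM per kilobase of annotated exon. A count of 0 allows up to 3 counts, which was at most 0.0673 CPM in any library, and this floor covers counting error only. In these libraries 8 of the 10 members were above 3 counts in every library, beside 58.9% of all protein-coding genes, and together the members took 0.129% of all counts. The 2 exceptions were elastin itself and fibrillin-2.

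Eln, the gene of elastin (ENSMUSG00000029675, chr5:134702593-134747323, minus strand), was at 0 counts in replicates 1 and 2 and at 1 count in replicate 3. Summed over the libraries this was 0.00695 CPM, with an exact Poisson 95% interval of 0.000176 to 0.0387 CPM for counting error only. Elastin RNA was therefore not detectable above the floor at this depth, while RNA of the lysyl oxidases Lox and Loxl1 was abundant. In CPM per kilobase these 2 stood at percentiles 95.5 and 94.0 of the genes above the floor. Loxl2 stood at 67.2 and Loxl3 at 58.2.

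Lox, the founding lysyl oxidase, had 85053 times the CPM per kilobase of Eln from counts summed over the 3 libraries, with an exact 95% interval of 15265 to 3.36e+06 that reflects the single Eln count. The corresponding ratio for Fbn1, the microfibril scaffold, was 6472, with an interval of 1161 to 255661. Lox and Fbn1 were above Eln in 3 of 3 libraries also with Eln set to 3 counts, and in an exact permutation test over sign flips each two-sided p was 0.25, the lowest that a design of 3 libraries can reach. With Eln at 3 counts the log2 ratio of Lox to Eln was 13.20 per kilobase of all exons and 12.14 per kilobase of the longest transcript, because the annotated exons of Eln span 8098 bases and its longest transcript 3853.

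**Figure D1:**
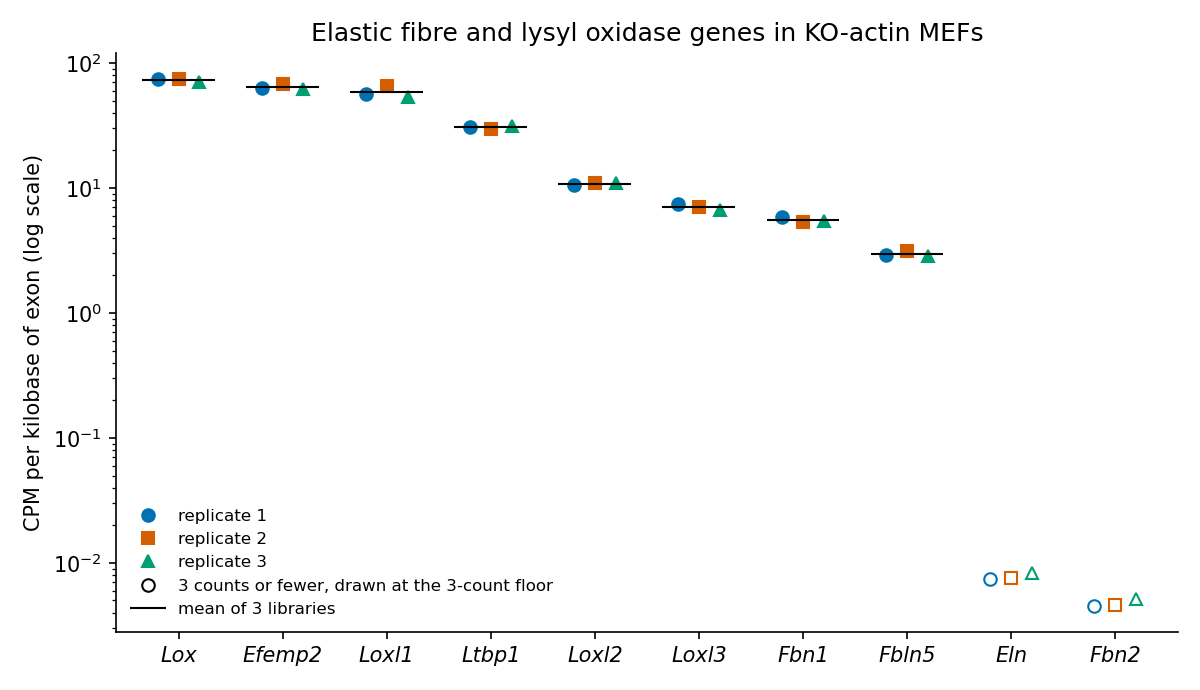
CPM per kilobase of exon on a log axis for the 10 members, with a filled symbol for each of the 3 KO-actin libraries, a line at their mean and open symbols where a library had 3 counts or fewer and is drawn at that floor. Lox, Efemp2 and Loxl1 sit highest at 72.9, 64.8 and 58.3 CPM per kilobase, Fbln5 is the lowest detected member at 2.97, and Eln and Fbn2 have open symbols only.

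Of the fibrillins, the chief proteins of microfibrils, Fbn1 was detected and Fbn2 was not. Fbn1, whose human counterpart is mutated in Marfan syndrome, spans chr2:125300594-125507993 on the minus strand and had 3535, 3195 and 2963 counts in replicates 1, 2 and 3. Its level was 70.8, 64.7 and 66.5 CPM in turn, a mean of 67.3 ± 3.14 CPM (SD, n = 3), or 5.55 ± 0.259 CPM per kilobase. Replicate 1 was highest and replicate 2 lowest.

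Fbn2, the fibrillin known for its part in the embryo (chr18:58008623-58210487, minus strand), had 0 counts in every library. With Fbn2 at the floor of 3 counts in each library, Fbn1 was at least 1284-fold, 1160-fold and 1076-fold higher in CPM per kilobase in replicates 1 to 3 in turn. By the exact sign-flip permutation test the two-sided p was 0.25, the smallest possible. A share of 20.1% of the exonic length of Fbn1 overlaps Gm9913 on the opposite strand, a gene with 4, 7 and 2 counts, and whether counting used the strand is not given in the sources used here.

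Ltbp1, a latent TGF-β binding protein that associates with fibrillin microfibrils, was among the more abundant members. It lies at chr17:75005568-75392512 on the plus strand and had 16355, 15818 and 14823 counts in replicates 1, 2 and 3, or 328, 320 and 333 CPM. Its mean was 327 ± 6.30 CPM (SD, n = 3), or 30.6 ± 0.590 CPM per kilobase, and its libraries lay closest together of all 8 detected members, with the highest 1.04-fold above the lowest.

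Among the fibulin members Efemp2 far exceeded Fbln5. Efemp2 encodes fibulin-4, known to be needed for elastic fibre assembly and to bind lysyl oxidase, and had 241, 258 and 237 CPM in replicates 1, 2 and 3, from 12043, 12753 and 10546 counts (chr19:5473954-5482517, plus strand). Its mean was 245 ± 11.3 CPM (SD, n = 3), or 64.8 ± 2.98 CPM per kilobase. On the opposite strand Mus81, with 2500, 2513 and 2283 counts, overlaps 4.57% of its exonic length.

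Fbln5, which encodes fibulin-5 and is known to organise elastin on microfibrils, had 19.9, 21.6 and 19.9 CPM from 996, 1068 and 887 counts (chr12:101746565-101819055, minus strand). Its mean was 20.5 ± 0.976 CPM (SD, n = 3), or 2.97 ± 0.141 CPM per kilobase. Both fibulin genes were highest in replicate 2.

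In CPM per kilobase Efemp2 was 22.1-fold, 21.8-fold and 21.7-fold above Fbln5 in the 3 libraries, a log2 ratio of 4.45 with an SD of 0.01. The exact sign-flip permutation test could not go below its two-sided p of 0.25, but the ratio was far larger than its spread. Without division by length the log2 ratio of CPM was 3.58.

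The fibulins outside the member list placed this pair within its family. Fbln2 made up 58.0% ± 0.346 (SD, n = 3) of the summed CPM per kilobase of 6 fibulin genes, Efemp2 29.9% ± 0.199, Fbln1 10.4% ± 0.148 and Fbln5 1.37% ± 0.0202. Fbln7 held 0.300% ± 0.0274. Efemp1, which encodes fibulin-3, had counts of 2, 0 and 1, at or under the floor in each library.

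Among the members the 4 lysyl oxidases summed to 149 ± 8.19 CPM per kilobase (SD, n = 3), the 2 fibulins to 67.7 ± 3.12 and the fibrillins to 5.55 ± 0.259. These sums follow which genes were listed, since Fbln1, Fbln2, Fbln5 and Efemp2 together had 216 ± 9.18 CPM per kilobase, above the 4 lysyl oxidases. Lox itself, at chr18:52516067-52529867 on the minus strand, had 17702, 17512 and 14969 counts in replicates 1, 2 and 3. These were 354.5, 354.5 and 336 CPM, a mean of 348 ± 10.7 CPM (SD, n = 3), or 72.9 ± 2.23 CPM per kilobase. Replicates 1 and 2 were alike and replicate 3 was lower.

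Loxl1, the lysyl oxidase most closely tied to elastin, lies at chr9:58287738-58313186 on the minus strand and had 9271, 10637 and 7820 counts. Its levels of 186, 215 and 176 CPM gave a mean of 192 ± 20.7 CPM (SD, n = 3), or 58.3 ± 6.27 CPM per kilobase. The spread between libraries was wider than for any other detected member, with replicate 2 on top and 1.23-fold above replicate 3.

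Loxl2, which has scavenger receptor domains that Lox and Loxl1 lack, had 2829, 2943 and 2639 counts (chr14:69609068-69695834, plus strand). Its levels were 56.7, 59.6 and 59.2 CPM, a mean of 58.5 ± 1.60 CPM (SD, n = 3), or 10.8 ± 0.295 CPM per kilobase. This value is open to doubt, since Gm21451 holds 91.7% of the 50-base windows of the Loxl2 coding sequence. That gene, annotated as an unprocessed pseudogene at chr14:69390854-69480287 on the plus strand, had 5, 9 and 4 counts and was picked out after these values had been seen. How reads that match both were counted is not given in the sources used here. Divided instead by the kilobases of 50-base windows that no other gene holds, an alternative added after seeing the data, Loxl2 had 20.5 ± 0.559 CPM per kilobase (SD, n = 3).

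Loxl3 had 1700, 1609 and 1378 counts in replicates 1, 2 and 3 (chr6:83034173-83052562, plus strand). Its levels were 34.0, 32.6 and 30.9 CPM, a mean of 32.5 ± 1.56 CPM (SD, n = 3), or 7.06 ± 0.338 CPM per kilobase. On the opposite strand Htra2, with 4185, 4483 and 3553 counts, overlaps 11.6% of its exonic length.

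Loxl4, the remaining lysyl oxidase and not a member, had 11578, 11544 and 9790 counts and 54.2 ± 1.80 CPM per kilobase (SD, n = 3), with a range over libraries that overlapped that of Loxl1. Counted with it, the 5 lysyl oxidases summed to 203 ± 9.83 CPM per kilobase, with a range of 193 to 213 over libraries that overlapped the 208 to 226 of those 4 fibulins. Lox then made up 35.9% ± 0.923 (SD, n = 3) of the family's CPM per kilobase, Loxl1 28.6% ± 1.76, Loxl4 26.7% ± 0.567, Loxl2 5.33% ± 0.291 and Loxl3 3.48% ± 0.157. Over windows held by no other gene the share of Loxl2 was 9.13% ± 0.474 and that of Lox 33.1% ± 0.790. Lox held the largest share in each of the 3 libraries on either scale.

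**Figure D2:**
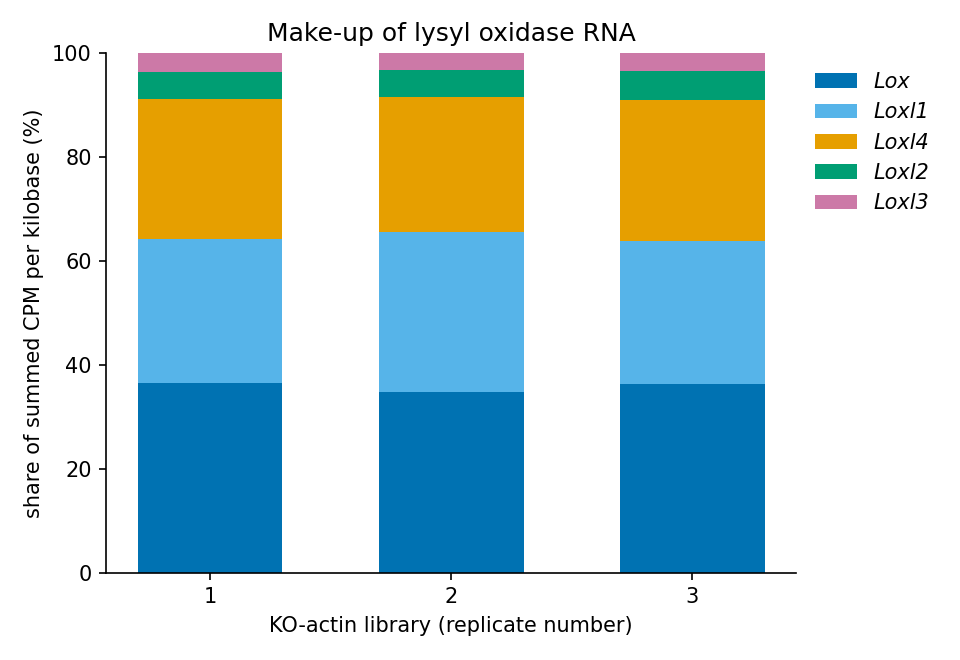
Stacked bars give the share of each of the 5 lysyl oxidase genes in the family's summed CPM per kilobase of exon, in percent, for each KO-actin library. Lox holds 34.8% to 36.5% in the 3 libraries, Loxl1 is widest in replicate 2 at 30.7%, and Loxl2 and Loxl3 together form the thin upper bands.

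Ordered by mean CPM per kilobase, the detected members ran Lox, Efemp2, Loxl1, Ltbp1, Loxl2, Loxl3, Fbn1 and Fbln5. Among the genes above the floor, Lox stood at percentile 95.5, Efemp2 at 94.7, Loxl1 at 94.0, Ltbp1 at 86.7, Loxl2 at 67.2, Loxl3 at 58.2, Fbn1 at 53.2 and Fbln5 at 41.5. This order came from the means of the same libraries, so the direction within a pair is a description and not independent support. In all 7 neighbouring pairs the gene named first was higher in 3 of 3 libraries, and in 6 of them the ranges over libraries did not overlap. The exception was Efemp2 and Loxl1, which differed 1.11-fold with overlapping ranges. Lox and Efemp2 differed by only 1.13-fold, and Efemp2 was above Lox when the longest transcript, or windows held by no other gene, set the length. On the latter scale Efemp2 had 99.7 ± 4.59, Lox 74.2 ± 2.27 and Ltbp1 49.4 ± 0.952 CPM per kilobase (SD, n = 3). The largest step between neighbours was the 2.83-fold gap from Ltbp1 to Loxl2. Each neighbouring pair had a two-sided p of 0.25 by the exact sign-flip permutation test, before and after adjustment over 9 pairs that included Eln and Fbn2 at the floor.

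By the distance of log2 CPM per kilobase over the 3 libraries, the protein-coding genes nearest to Lox among 12726 were Rad23b at 0.0273, Ahcyl1 at 0.0350 and Rpl21 at 0.0432. The 3 points share libraries and depth, so this likeness is a description only.

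The spread of the 8 detected members between libraries is given beside that of other genes. Their SD of log2 CPM had a median of 0.07, between 0.03 for Ltbp1 and 0.15 for Loxl1, beside 0.08 over the 13814 genes that reached 10 counts in all libraries. Their biological coefficient of variation was 4.11% to 5.51% with a median of 4.64%, beside 5.39% over all these genes. It is edgeR's estimate of replicate spread beyond counting error, drawn towards that of other genes, so it is not each gene's own spread. Among genes at 100 to 1000 CPM its median was 4.27% for the members beside 4.26% for all. In the range of 10 to 100 CPM it was 4.89% beside 5.09%. At matched level the median SD of log2 CPM was 0.06 for the 4 members at 100 to 1000 CPM beside 0.05 for all genes there, and 0.07 for both the 4 members and all genes at 10 to 100 CPM.

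A chi-square with 2 degrees of freedom of each gene's counts against the library sizes, with Benjamini-Hochberg adjustment over all 13814 genes, called 5 of the 8 members varying beyond counting error, beside 43.8% of all genes. The adjusted p was 1.47e-44 for Loxl1, 2.30e-10 for Efemp2, 2.37e-06 for Lox, 0.00269 for Fbn1 and 0.00999 for Ltbp1. For Loxl3 it was 0.0646, for Fbln5 0.176 and for Loxl2 0.193.

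Power to see such variation rises with the count, and calls among the members followed their level. The 5 called members included all 4 at 100 to 1000 CPM, where 74.7% of all genes were called, and 1 of 4 at 10 to 100 CPM, where the background was 47.4%. The fold between the highest and lowest library among called members was 1.04 for Ltbp1, 1.06 for Lox, 1.09 for Fbn1 and Efemp2 and 1.23 for Loxl1.

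Leaving out replicate 2 took away most calls. Without it 2 members were called, Lox at an adjusted p of 6.74e-05 and Loxl1 at 0.00461, beside 12.5% of all genes, and the calls of Fbn1 (adjusted p = 0.0764), Efemp2 (adjusted p = 0.385) and Ltbp1 (adjusted p = 0.415) were lost. Without replicate 1 the call of Fbn1 was lost (adjusted p = 0.470), where 4592 of all genes were called in place of 6046. Without replicate 3 the calls of Lox (adjusted p = 0.986) and Ltbp1 (adjusted p = 0.0984) were lost, where 4807 of all genes were called. Such counts are not shares, since the number of genes tested changed as well, from 13814 with all libraries to 14037 without replicate 2.

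**Figure D3:**
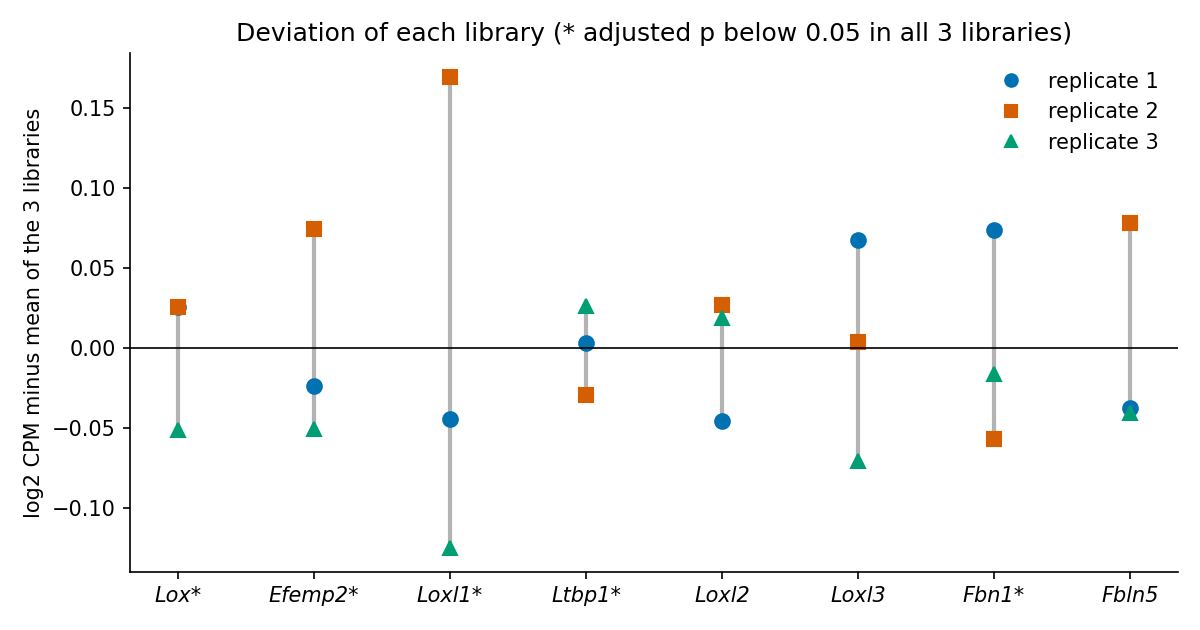
The log2 CPM of each library minus the mean of the 3 is drawn for the 8 detected members, with a grey bar from the lowest to the highest library and a star on the 5 members called varying. Loxl1 has the longest bar, with replicate 2 at 0.17 and replicate 3 at -0.13, and Ltbp1 the shortest.

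Replicate 2 deviated from the others along GC content across all genes. In genes of low GC content it lay below the mean of the 3 libraries and in genes of high GC content above it, with a median log2 deviation of -0.12 in the lowest of 50 bins of GC content and 0.13 in the highest. Replicate 2 was the highest library for 4 of the 8 members, beside 38.4% of all tested genes, and the lowest for 2, beside 38.7%.

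Loxl1 had the highest GC content of the detected members, 61.0% of its longest transcript, and the largest deviation of replicate 2, at 0.17 on the log2 scale, where genes of like GC content had a median of 0.10. Lox, with the lowest GC content at 43.9%, lay at 0.03 in replicate 2 against a median of -0.05 for genes of like GC content. Taking away the median of its bin brought replicate 2 nearer to 0 for Efemp2, Loxl1 and Loxl2 and not for the other 5 members. With library sizes estimated within each bin, 5 members were again called, beside 29.9% of all genes. The adjusted p of that chi-square was lower than without bins for Lox (9.14e-20), Ltbp1 (1.32e-06) and Fbn1 (0.000486). For Loxl1 (1.50e-09) and Efemp2 (0.00344) it was higher.

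**Figure D4:**
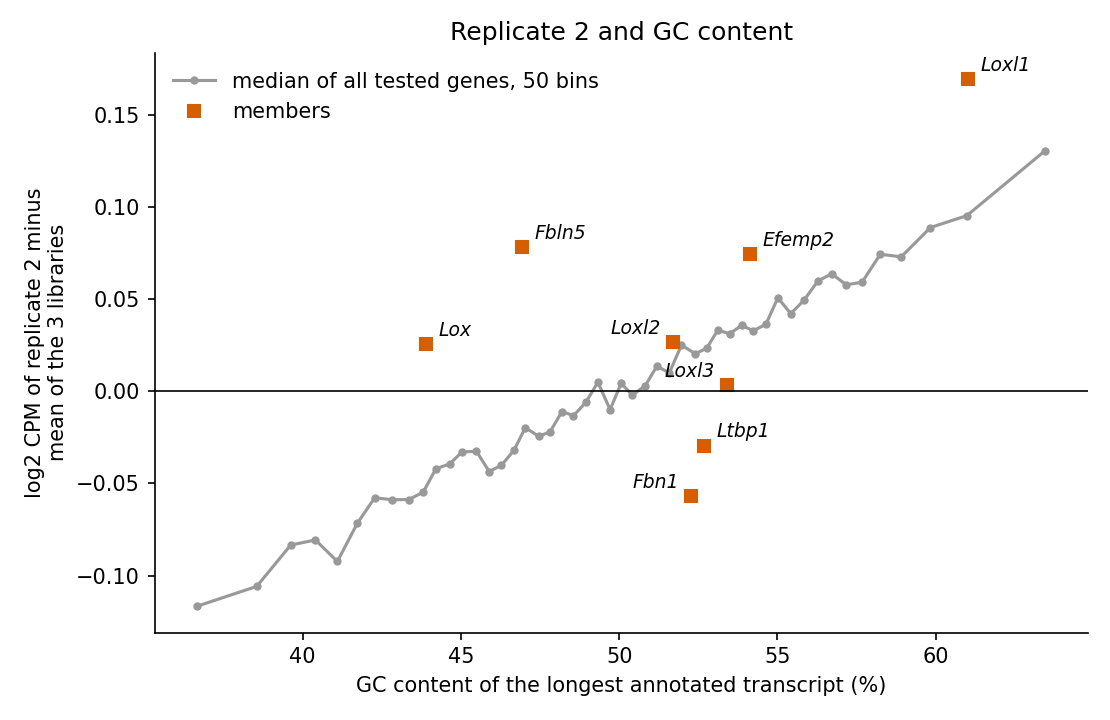
The log2 deviation of replicate 2 from the mean of the 3 libraries is plotted against GC content of the longest annotated transcript in percent, with orange squares for the 8 detected members and a grey line for the median of all tested genes in 50 bins. The line rises from -0.12 to 0.13, Loxl1 lies above it at the right, and Fbn1, Ltbp1 and Loxl3 lie below it.

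The other genes of elastic fibre assembly, a list of 30 drawn from general knowledge, were mostly present, with 24 above 3 counts in every library. Of the 23 that could be tested for variation, 13 were called, beside the same 43.8% of all genes. Without replicate 2 only 4 of them were called, Emilin1, Fbln2, Loxl4 and Tgfb1, beside 12.5% of all genes, and with library sizes estimated within GC bins 10 were called, 8 of them from the 13, beside 29.9%. Mfap4 and Mfap5, microfibril-associated glycoproteins, had 0 counts in every library, as did Tll1 and Tll2, relatives of the protease Bmp1. Efemp1 was at the floor, and Adamts17 had 3, 3 and 6 counts.

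Of the microfibril proteins that were detected, Emilin1, which sits between elastin and microfibrils, had 12.1 ± 0.888 CPM per kilobase (SD, n = 3) and Emilin2 had 4.52 ± 0.299. Mfap2, a small glycoprotein that binds fibrillins, had only 176, 270 and 183 counts and 3.61 ± 0.822 CPM per kilobase. Replicate 2 was 1.55-fold above replicate 1 for Mfap2, a wider gap than for any member. At a GC content of 59.6%, its log2 deviation in replicate 2 was 0.35, where genes of like GC content had a median of 0.09. Emilin1, Emilin2 and Mfap2 were all called varying beyond counting error, beside 43.8% of all genes. Without replicate 2 the calls of Mfap2 (adjusted p = 0.376) and Emilin2 (adjusted p = 0.438) were lost, and within GC bins that of Emilin2 (adjusted p = 0.337).

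Of 6 genes that mature lysyl oxidases and fibrillins or bring in copper, 4 were above the floor and Tll1 and Tll2 were at 0. Bmp1, the protease that cleaves the Lox propeptide, had 12.4 ± 0.0912 CPM per kilobase (SD, n = 3), and Furin, which cleaves profibrillin, had 11.4 ± 0.650. Slc31a1, a copper importer, had 23.7 ± 0.601 CPM per kilobase, and Atp7a, which loads copper onto secreted enzymes, 2.83 ± 0.0991. Of these 4 Furin was called varying by the chi-square (adjusted p = 6.87e-07), beside 43.8% of all genes. The adjusted p was 0.808 for Bmp1, 0.0805 for Slc31a1 and 0.345 for Atp7a. The call of Furin was lost without replicate 2 (adjusted p = 0.885) and within GC bins (adjusted p = 0.0763), where Bmp1 was called instead (adjusted p = 0.0163).

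The other latent TGF-β binding proteins lay below Ltbp1, at 16.4 ± 0.929 CPM per kilobase (SD, n = 3) for Ltbp3, 2.91 ± 0.175 for Ltbp4 and 0.527 ± 0.0532 for Ltbp2. The TGF-β ligand genes were detected at 15.5 ± 1.76 CPM per kilobase for Tgfb1, 10.3 ± 0.587 for Tgfb2 and 6.09 ± 0.164 for Tgfb3. By the chi-square Ltbp3 (adjusted p = 9.86e-10), Tgfb1 (adjusted p = 6.66e-20) and Tgfb2 (adjusted p = 0.000343) were called varying, beside 43.8% of all genes. Without replicate 2 the calls of Ltbp3 (adjusted p = 0.488) and Tgfb2 (adjusted p = 0.0710) were lost, beside 12.5% of all genes called. Within GC bins that of Ltbp3 was lost (adjusted p = 0.0909), beside 29.9%. Replicate 2 was the highest library for Tgfb1 and the lowest for Tgfb2. All 3 genes of the elastin receptor complex were detected, the sialidase Neu1 at 23.9 ± 0.985 CPM per kilobase, its protective protein Ctsa at 123 ± 4.22 and the galactosidase gene Glb1, from which the elastin-binding protein is spliced, at 13.5 ± 0.0566. Gene counts do not separate that splice form from the enzyme. By the chi-square Ctsa (adjusted p = 6.03e-14) and Neu1 (adjusted p = 0.00214) were called varying and Glb1 was not (adjusted p = 0.974). Both calls were lost without replicate 2 (adjusted p = 0.102 for Ctsa and 0.131 for Neu1), and that of Neu1 within GC bins (adjusted p = 0.107).

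Among the ADAMTS family genes tied to microfibrils, Adamtsl4 had 8.07 ± 0.579 CPM per kilobase (SD, n = 3), Adamts10 2.72 ± 0.0788 and Adamtsl2 0.143 ± 0.0153. By the chi-square Adamtsl4 was called varying (adjusted p = 0.00115), beside 43.8% of all genes. Its call was lost without replicate 2 (adjusted p = 0.294) and within GC bins (adjusted p = 0.482), where Adamts10 was called instead (adjusted p = 0.0284). Thsd4 had 22, 16 and 9 counts, too few for the test of variation.

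**Figure D5:**
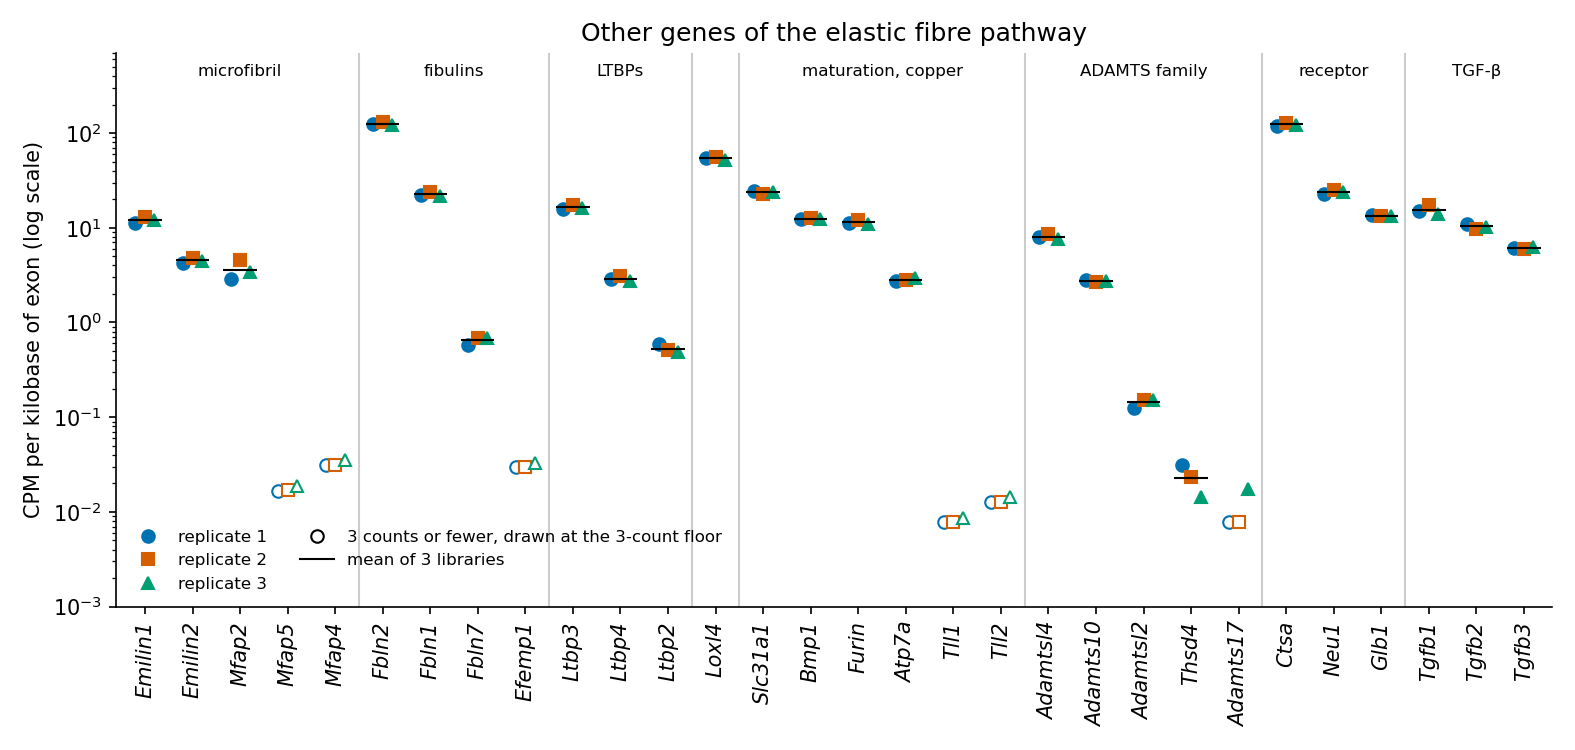
CPM per kilobase of exon on a log axis for the 30 other genes of elastic fibre assembly, grouped by role, with filled symbols for the 3 libraries, a line at their mean and open symbols for libraries with 3 counts or fewer. Fbln2 and Ctsa lie highest at 125.7 and 123 CPM per kilobase, and Mfap4, Mfap5, Efemp1, Tll1 and Tll2 have open symbols only.

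The labelled cell type was checked against marker genes, since elastin and its partners are made by several mesenchymal cells. Of 8 fibroblast markers 7 were above 3 counts in every library, with a sum of 8566 to 9501 CPM that came mostly from Vim and Col1a1. The fibroblast proteoglycan genes were low, with 0 counts of Lum in every library and 8, 8 and 6 of Dcn. Thy1 was also low, at 41, 29 and 49 counts, and Pdgfra had 4.97 ± 0.295 CPM (SD, n = 3). Pdgfrb at 125 ± 4.61 CPM and Col3a1 at 268 ± 6.05 CPM were higher. Of 6 smooth muscle markers 5 were above 3 counts in every library, with a sum of 1228 to 1246 CPM led by Tagln at 775 ± 9.19 CPM (SD, n = 3), while Myh11, which defines mature smooth muscle, had 3, 7 and 6 counts. Sums were 16.6 to 19.0 CPM for cartilage markers (4 of 5 above 3 counts, Acan at the floor), 4.75 to 5.47 for endothelial (3 of 5, Cdh5 at the floor), 1.48 to 1.80 for epithelial (1 of 4, Epcam and Cldn4 at the floor) and 0.240 to 0.673 for blood (1 of 4, Ptprc at the floor). The part of such cells in the levels of the members was not tested, and fewer cells making an RNA cannot be told apart from less of it per cell in bulk libraries.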

How the data were processed

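Polyadenylated RNA of KO-actin MEFs was sequenced in 3 libraries, which form 1 group. The values that the authors deposited are raw read counts for each Ensembl gene, with no scaling. The submitters' processing notes name Trimmomatic, FastQC, HISAT2 and HTSeq and the builds mm10 and GRCm38. The annotation release, the strand setting, the treatment of reads matching several genes and the read length are not given in the sources used here. With 1 group no differential test was possible.

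Symbols, exons, GC content of the longest transcript and sequences came from GENCODE M21 on GRCm38, and 46091 of the 46603 genes had a symbol. TMM factors came from edgeR 4.0.16 (R 4.3.3) on genes that reached 10 counts in all libraries, with DESeq2 1.42.0 and total counts as alternatives. CPM per kilobase used the union of exons, or alternatively the longest transcript, no length, or 50-base windows found in no other gene. Intervals and floors cover counting error only. The chi-square was tested on simulated data. Python 3.11.15, pandas 2.3.3, numpy 2.4.6, scipy 1.17.1 and matplotlib 3.10.9 were used.

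Genes named were the members, 30 genes of the pathway, cell type markers, genes whose exons overlap those of a member, and the 3 genes nearest to the highest member. Gm21451 was added after values were seen. The members and lists were chosen with earlier results of these data known.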

Additional observations from a re-analysis of the deposited data

How the results depend on the processing

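Leaving out each library in turn left 2 to 4 members varying beyond counting error in place of 5, and 1750 to 4807 of all genes in place of 6046. The lowest of each came without replicate 2. Other scalings and other count minimums kept the count of members at 5, beside 5718 to 6070 of all genes. Library sizes within GC bins also kept it at 5, beside 4116 of all genes, or 29.9%. The share of Lox in the lysyl oxidase family, 35.9%, was 34.7% per kilobase of the longest transcript, 40.5% without division by length and 33.1% over windows held by no other gene, the last chosen after seeing the data. Without division by length Ltbp1 and Fbn1 moved up in the order, which then ran Lox, Ltbp1, Efemp2, Loxl1, Fbn1, Loxl2, Loxl3 and Fbln5. All 40 alternative mean levels of single members stayed within 1 SD of the reported mean. Where 1 of the 3 libraries was dropped, no other outcome was possible, whatever the counts, so these settings do not test stability. The remaining settings changed only the scaling, for which TMM factors were 0.996 to 1.004, and show only that the levels hardly depended on it. Efemp2 passed Lox per kilobase of the longest transcript and over windows held by no other gene, so the first pair of the order turned, and none of the 4 class ratios changed direction. Further settings were also chosen after seeing the data. Leaving out each library left 24 pathway genes above the floor each time. Called varying were then 4 to 13 of them in place of 13, beside the 1750 to 4807 of all genes given above. Library sizes within GC bins left 10 pathway genes called, beside 29.9% of all genes. Other scalings moved the median deviation of replicate 2 over the members from 0.03 to between 0.02 and 0.03 on the log2 scale. No paired analysis was possible because the labels give 1 group, so no groups share replicate numbers. With 3 libraries no exact permutation test can pass 0.05, and with 2 the smallest p is 0.5, so these p-values say nothing about stability. Counts of Eln and Fbn2 limit their levels to bounds.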
